A study of Mus musculus with 5 samples.

Results

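Oxidative phosphorylation uses a chain of protein complexes in the inner mitochondrial membrane to make ATP. The genes described here encode subunits of these complexes or, for the 7 Ndufaf genes, assembly factors of complex I. They were taken by symbol from the platform annotation: every single symbol that starts with Nduf, Uqcr or Atp5, the symbols Sdha, Sdhb, Sdhc, Sdhd and Cyc1, and symbols that start with Cox followed by 4, 5, 6, 7 or 8, apart from 1 symbol that is not analysed here. The rule uses no measured value and found 89 of the 19938 genes with a probe set of their own. Of these 89 genes, 63 had a mean log2 intensity of at least 6 over the mice and were tested with the other genes past that filter, 6603 in all; the remaining 26 are described without a test.

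The samples are leukocytes (CD45+ cells) that flow cytometry separated from the pancreas of 5 female wild-type NOD mice aged 10 weeks; NOD is an inbred strain prone to autoimmune diabetes, and the labels name no treatment. The animals had an MRI scan before the organ was taken, and the RNA of each went to 1 array. Their labels give a T2 relaxation time per animal and name no tissue for it. Mouse 5 had the lowest at 28.98 ms, followed by mouse 4 (30.02 ms), mouse 3 (32.77 ms), mouse 2 (35.24 ms) and mouse 1 (35.3 ms). The mice form 1 group and no other condition was given, so each gene was set against T2 as a slope, the change in log2 intensity per ms (n = 5). T2 runs in the reverse order of the sample numbers, so handling or array order, if it followed those numbers, cannot be told apart from T2.

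In the respiratory chain, complex I oxidises NADH and complex II oxidises succinate, and both pass electrons through coenzyme Q to complex III and on through cytochrome c to complex IV, which reduces oxygen. Complexes I, III and IV pump protons, and complex V, the ATP synthase, lets them flow back to make ATP. Most subunits are encoded in the nucleus and some in mitochondrial DNA. Lymphocytes draw on this chain for survival and memory, and activated lymphocytes and macrophages shift part of their ATP supply to glycolysis.

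Sorted cells carried the leukocyte marker Ptprc, which encodes CD45, at a log2 intensity of 11.06 ± 0.10 (SD, n = 5). B cell markers (7 genes), T cell markers (7 genes) and macrophage markers (9 of 10 genes) passed the filter. Of the other cell types, 3 of 6 acinar genes, 0 of 7 islet endocrine genes and 0 of 1 erythroid gene did so. The mean of the macrophage markers ran between 7.53 in mouse 1 and 8.88 in mouse 5, that of the T cell markers between 8.48 in mouse 1 and 9.11 in mouse 2, and that of the B cell markers between 8.56 in mouse 2 and 9.42 in mouse 1. In such mixed samples fewer cells of a type and less RNA per cell cannot be told apart.

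Of the 63 subunit genes tested, 2 had an unadjusted p under 0.05 for the T2 slope, beside 5.29% of all genes tested, and their promoters are shown for that reason, next to that of Ndufv2, whose deposited value was the same on all 5 arrays. Sdha encodes the flavoprotein of complex II, Ndufa11 an accessory subunit of the complex I membrane arm, and Ndufv2 an iron-sulphur subunit of the complex I arm that takes electrons from NADH. Sequences are the 250 bases before the first start listed for each gene in RefSeq (GRCm38.p6), 5′ to 3′ on the strand of the gene. Sdha lies on the minus strand with its window at chr13:74350241-74350490, Ndufa11 on the plus strand at chr17:56717512-56717761 and Ndufv2 on the minus strand at chr17:66101560-66101809. Capitals mark matches to the palindromic motif of nuclear respiratory factor 1, a known activator of respiratory chain genes, with any base allowed at the sixth position.
Sdha: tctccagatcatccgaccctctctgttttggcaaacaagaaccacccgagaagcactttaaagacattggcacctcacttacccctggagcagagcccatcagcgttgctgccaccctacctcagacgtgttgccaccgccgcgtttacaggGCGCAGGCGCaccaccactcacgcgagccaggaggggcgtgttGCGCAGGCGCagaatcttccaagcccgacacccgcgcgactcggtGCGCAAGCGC
Ndufa11: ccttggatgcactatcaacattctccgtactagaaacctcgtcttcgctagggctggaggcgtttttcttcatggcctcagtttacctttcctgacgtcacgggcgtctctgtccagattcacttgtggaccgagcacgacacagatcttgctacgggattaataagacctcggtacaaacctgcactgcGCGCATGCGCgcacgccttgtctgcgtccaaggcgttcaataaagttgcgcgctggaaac
Ndufv2: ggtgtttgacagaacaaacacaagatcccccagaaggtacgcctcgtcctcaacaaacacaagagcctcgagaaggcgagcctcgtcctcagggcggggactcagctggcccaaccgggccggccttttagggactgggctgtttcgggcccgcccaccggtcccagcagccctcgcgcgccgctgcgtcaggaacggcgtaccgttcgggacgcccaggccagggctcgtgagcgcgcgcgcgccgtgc
The window of Sdha holds 3 matches, that of Ndufa11 holds 1 and that of Ndufv2 has none of the letters searched.

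Across the members, 73 of 89 had a RefSeq window. These include members under the filter, whereas the windows of genes tested are of genes past it, so the sets are not alike. The nuclear respiratory factor 1 motif, searched on both strands with a site read on both counted once, stood in 12 of these 73 windows (16.4%), in 10.2% of the 5357 windows of genes tested and in 3.86% of all 27025 windows. The ETS motif CCGGAAG, which GA-binding protein and other ETS factors recognise, stood in 12 windows of members (16.4%), in 16.4% of those of genes tested and in 7.05% of all windows. The YY1 motif AAGATGGCG stood in 0 of 73, in 1.42% of genes tested and in 0.607% of all windows. CCAAT, the box of nuclear factor Y, stood in 32 of 73 (43.8%), in 35.8% and in 34.5%. A match is a description of the letters and says nothing about binding in these cells.

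The complexes differed in how many members passed the filter. All 17 members of complex V and all 4 of complex II passed, with 8 of 9 in complex III, 23 of 34 in complex I and 11 of 18 in complex IV. None of the 7 complex I assembly factors, the Ndufaf genes, passed: their mean log2 intensities ran between 3.81 and 5.89, and the array medians between 4.57 and 4.61. An intensity depends on the probes as well as on the RNA, so the levels of different genes are not ranked here. Mean log2 intensities ran between 6.44 and 10.32 in complex V, 6.52 and 8.35 in complex II, 5.97 and 8.53 in complex III, 4.01 and 8.11 in complex I, and 2.91 and 8.38 in complex IV. Cox7a2 and Uqcr10 lay just inside the filter with means of 6.25 and 6.31, and Ndufb9 and Uqcr11 just outside with 5.99 and 5.97.

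Complex IV, cytochrome c oxidase, has paired isoforms, and its 7 members under the filter were all isoforms or relatives known from other tissues or states. Cox4i2, the isoform known from lung, averaged 4.62 ± 0.088, and Cox4i1, the general isoform, 8.38 ± 0.14. Cox7a1, known from heart and muscle, averaged 3.64 ± 0.17, and Cox7a2 6.25 ± 0.012. Cox8b, a muscle isoform, averaged 3.87 ± 0.041, and Cox8a 6.87 ± 0.078. Cox6b2, a testis isoform, averaged 4.66 ± 0.048, and Cox6b1 7.98 ± 0.065. Ndufa4, named for complex I and known as a subunit of complex IV, averaged 8.32 ± 0.20, and its hypoxia-inducible relative Ndufa4l2 4.36 ± 0.12 (SD, n = 5 for each gene). Cox7b2 at 2.91 and Cox8c at 3.66, both known from testis, complete the 7.

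Most members varied little between mice. The median SD of the 63 members over the 5 mice was 0.065 on the log2 scale, beside 0.105 over all genes tested, and 42 members had an SD under 0.1. By complex the median SD was 0.057 (I), 0.075 (II), 0.050 (III), 0.078 (IV) and 0.128 (V), so that of complex V lay above that of all genes tested. Equal values on several arrays, described below, lower the SD. Ndufs4, an accessory subunit of complex I, varied most. Its log2 intensities in mice 5, 4, 3, 2 and 1, with T2 from low to high, were 6.87, 6.67, 6.37, 6.87 and 6.33. Atp5mpl, a small membrane subunit of complex V, read 8.06, 7.85, 8.03, 8.07 and 7.52 in the same order, with its low value in mouse 1. Atp5k, subunit e of complex V, read 7.31, 7.29, 7.29, 7.29 and 6.83, and there too mouse 1 stood below the other mice, which were nearly equal. In these 3 genes mouse 1 was the lowest of the 5, although its T2 was within 0.06 ms of that of mouse 2.

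**Figure D1:**
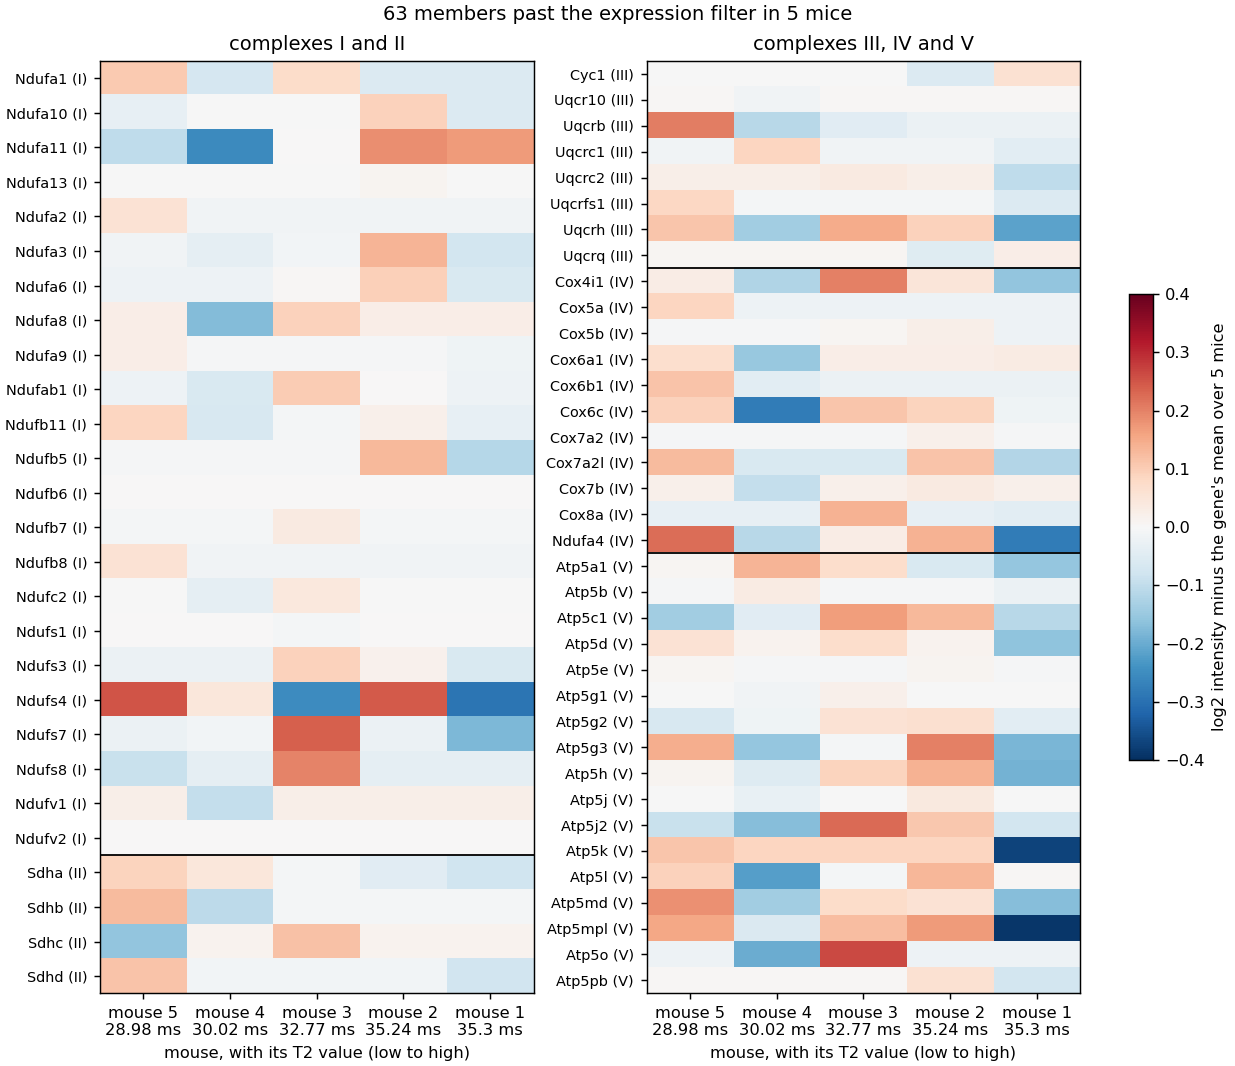
Heat map of the 63 members past the filter, 1 row per gene with its complex in brackets, 1 column per mouse ordered by T2 from low to high; colour is log2 intensity minus the gene's mean over the 5 mice. Most of the blue (low) cells lie in the columns of mice 4 and 1, Ndufb6 and Ndufv2 are blank because their 5 values are equal, and Sdha grades from red to blue along the order of T2.

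Most members were lowest in mouse 1 or in mouse 4. As deposited, 28 of the 63 (44.4%) had their single lowest value in mouse 1 and 19 (30.2%) in mouse 4, with 4 in mouse 5, 1 in mouse 3 and 2 in mouse 2; 9 had a lowest value shared by several mice. Over all genes tested the shares were 15.9% for mouse 1 and 8.53% for mouse 4, and the most common lowest mouse was mouse 3, at 33.1%. The single highest value was in mouse 5 for 18 members, in mouse 3 for 18 and in mouse 2 for 17, beside 3 in mouse 4 and 2 in mouse 1. Mouse 4 had the second lowest T2 and mouse 1 the highest. These counts move with the scaling of the arrays: with each array centred on its median over the genes tested, whose medians lay between 7.03 in mouse 3 and 7.17 in mouse 5, the members were lowest in mouse 5 in 28 genes, in mouse 1 in 18 and in mouse 4 in 17, and highest in mouse 3 in 39 and in mouse 2 in 20. On that scale 37.7% of all genes tested were lowest in mouse 5, 13.5% in mouse 1 and 11.2% in mouse 4.

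**Figure D2:**
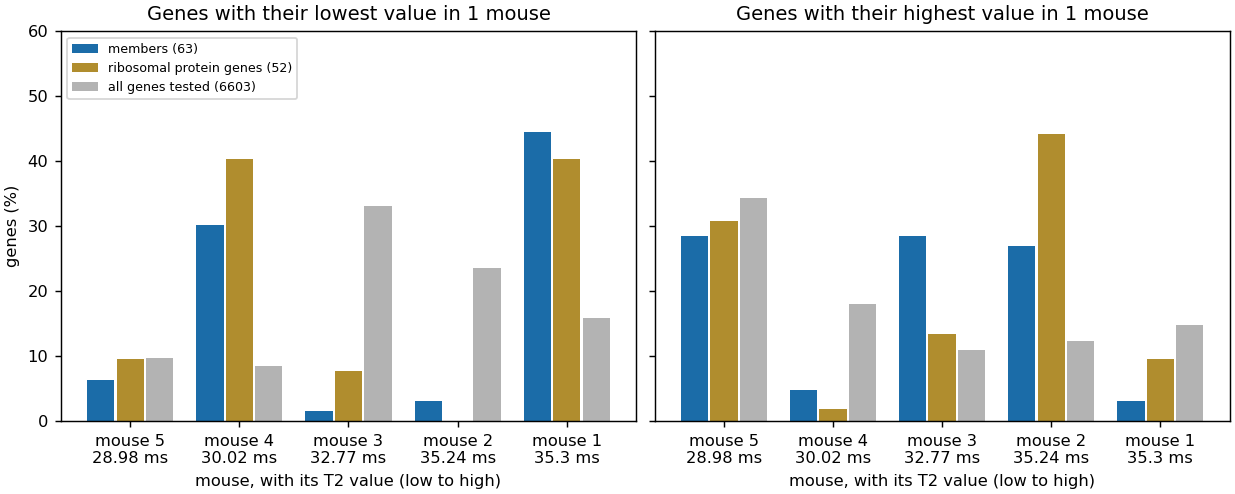
Share of genes (%) whose single lowest value (left) or single highest value (right) lies in each mouse, ordered by T2 from low to high, as deposited; blue is the 63 members, gold the 52 ribosomal protein genes, grey all 6603 genes tested. For members and ribosomal protein genes the lowest value is most often in mouse 1 or 4, and for all genes tested in mouse 3 or 2.

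Mice 1 and 2 give a direct view, since their T2 values were 35.3 and 35.24 ms. Of the 63 members 41 were lower in mouse 1 than in mouse 2, 3 were higher and 19 were equal, with a median difference of -0.030 log2. Over all genes tested 31.6% were lower in mouse 1 and the median difference was 0. With centred arrays 61 of 63 members and 65.2% of all genes were lower in mouse 1. Complex V had 15 of 17 members lower in mouse 1 and 0 higher, with a median of -0.13, and complex I 12 of 23 lower and 0 higher, with a median of -0.013. Between mice 5 and 4, with T2 of 28.98 and 30.02 ms, 39 members were higher in mouse 5, 9 lower and 15 equal, and the median difference of mouse 5 from mouse 4 was 0.033. Over all genes tested 3216 of 6603 were higher in mouse 5, 32.5% were lower and the median difference was 0. With centred arrays 27 members were higher in mouse 5 and 36 lower, and 64.1% of all genes were lower. In complex IV 8 of 11 members were higher in mouse 5 and 0 lower, with a median of 0.15; with centred arrays 8 were higher and 3 lower, with a median of 0.083. Each mouse is a single array, so these differences carry no test.

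Mice of near-equal T2 also differed in their cell markers. Mouse 1 had the lowest mean of the T cell markers and the highest of the B cell markers, 8.48 and 9.42, and mouse 2 had the highest of the T cell and the lowest of the B cell markers, 9.11 and 8.56. Mouse 4 had the lowest mean of the neutrophil markers, 6.92 over the 5 genes past the filter, and mouse 5 read 8.23. The acinar markers past the filter had a mean of 7.96 in mouse 1 and between 7.02 and 7.66 in the other mice. The part of these cell types in the levels of the members was not tested.

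The ribosomal protein genes, another large set of genes that every cell uses, had a like pattern across mice. Of 52 tested, 21 had their single lowest value in mouse 1 and 21 in mouse 4, and 23 were highest in mouse 2. Centred on the array medians they were lowest in mouse 1 in 17 and in mouse 4 in 22, so that, unlike the members, they were not lowest most often in mouse 5, where 12 were lowest. Between mice 1 and 2, 45 of 52 were lower in mouse 1. Of 12 glycolytic enzyme genes tested, 9 were lower in mouse 1 than in mouse 2. Not every set had its low values in mouse 4. Of 14 citric acid cycle genes, as deposited, 6 had their single lowest value in mouse 1 and 0 in mouse 4, where 6 had their single highest. The difference between these sets and the members was not tested.

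None of the members passed for T2. At limma's adjusted p under 0.05 over all genes tested, 0 of 63 passed, beside 0 of all 6603 (0%), and at an unadjusted p under 0.05 there were 1 with a negative slope, against 4.59% of all genes, and 1 with a positive slope, against 0.697%. Slopes of members were even between directions, with 31 negative, 30 positive and 2 at 0, while 67.9% of all genes tested had a negative slope, 28.9% a positive one and 3.27% one of 0. The median slope was 0 for the members and -0.0074 log2 per ms for all genes tested. With centred arrays the split was 11 negative and 52 positive for the members, and 37.4% negative for all genes, so no direction can be read from the deposited split. The fitted folds of the lowest over the highest T2 ran between 0.775 and 1.20 for members, and 55 of the 63 (87.3%) had a 95% interval within 1.5-fold in either direction, beside 72.8% of all genes tested. Equal values on several arrays, described below, narrow such intervals. They were found on 3 or more arrays in 52.4% of the members and 38.2% of all genes tested. The shares within 1.5-fold therefore do not show that T2 effects on the members are small. Intervals of 7 members, Atp5j2, Cox6c, Atp5o, Atp5k, Ndufa4, Atp5mpl and Ndufs4, reached past 1.5-fold and include 1; these were named for their intervals after these were seen. That of Ndufa11 also reached past 1.5-fold and leaves out 1.

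**Figure D3:**
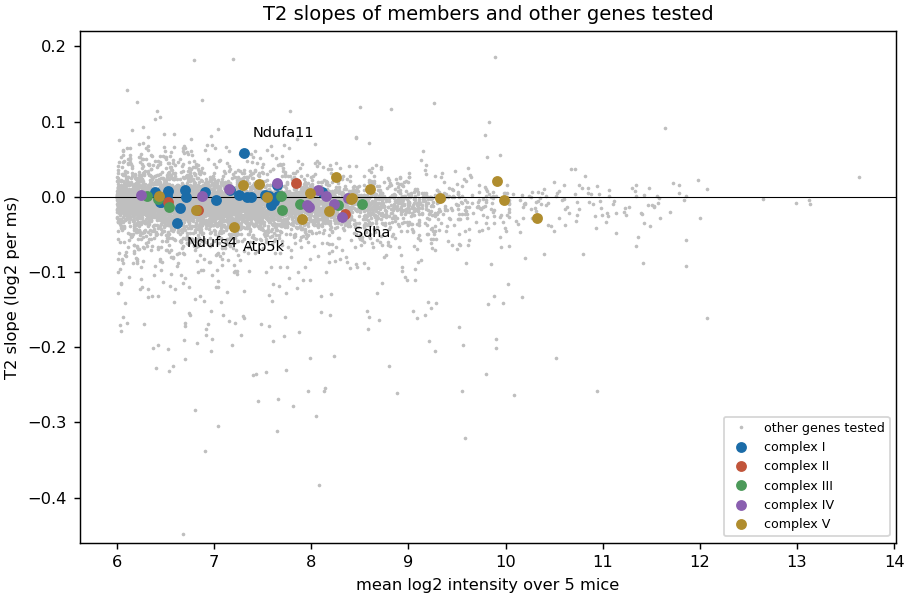
T2 slope (log2 per ms) against mean log2 intensity; each coloured point is 1 of the 63 members by complex, each grey point 1 of the other genes tested. The members lie between -0.041 and 0.058, in the central band of the grey points.

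Complex II, succinate dehydrogenase, also belongs to the citric acid cycle. Sdha read 8.44, 8.39, 8.34, 8.30 and 8.27 in mice 5, 4, 3, 2 and 1. As deposited it was lower with each step up in T2, by a small amount, but with centred arrays it was highest in mouse 3, as were the other genes of complex II. The sizes of the deposited steps did not match T2: Sdha fell from 8.30 to 8.27 between mice 2 and 1, only 0.06 ms apart. Between mice 3 and 2, at 32.77 and 35.24 ms, it fell from 8.34 to 8.30. The slope was -0.023 ± 0.0042 (SE), a fitted ratio of low over high T2 of 1.11 (95% interval 1.05 to 1.16; limma adjusted p = 0.444), which did not pass. With centred arrays the slope was -0.0091 and with quantile renormalized arrays -0.012. Sdhb, the iron-sulphur subunit, had a slope of -0.0067 ± 0.014, Sdhc, a membrane anchor, 0.019 ± 0.015, and Sdhd, the other anchor, -0.018 ± 0.0085. Sdhc was lowest in mouse 5 (7.68) and Sdhb and Sdhd were highest there (6.65 and 6.95).

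In complex I, Ndufa11 ran the other way. Its log2 intensities in mice 5, 4, 3, 2 and 1 were 7.20, 7.05, 7.31, 7.49 and 7.47. Both mice of T2 over 35 ms thus lay above the other mice. The slope was 0.058 ± 0.014, a fitted ratio of low over high T2 of 0.775 (0.652 to 0.922; limma adjusted p = 0.622), which did not pass. A second probe set of Ndufa11 read 6.82, 6.67, 6.80, 6.82 and 6.80 in the same order, a least-squares slope of 0.0088 ± 0.012, so the steeper slope rests on 1 of 2 probe sets. With the macrophage marker mean as a covariate, the slope of Ndufa11 turned to -0.074. That mean itself followed T2, with a slope of -0.22 ± 0.019, so a fit to 5 mice can hardly separate it from T2. The part of macrophages in the Ndufa11 slope was not tested. Ndufb8 and Ndufa2, accessory subunits with the next lowest p, had slopes of -0.0074 ± 0.0054 each, from a single higher value in mouse 5 and equal values on the other 4 arrays. Ndufa10, an accessory subunit, had a slope of 0.0062 ± 0.0098, and the complex mean one of 0.0017 ± 0.0068 over its 23 members. Of these, 8 slopes were negative and 13 positive.

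In complex III, cytochrome bc1, 6 of 8 slopes were negative and the complex mean had a slope of -0.0077 ± 0.0056. Uqcrfs1, the Rieske iron-sulphur protein, had a slope of -0.013 ± 0.0066, Uqcrc1, a core protein, -0.0096 ± 0.0079, and Uqcrc2, the other core protein, -0.010 ± 0.0092. Uqcrfs1 read 6.62 in mouse 5, 6.53 in mice 4, 3 and 2, and 6.48 in mouse 1. Its slope thus rests on the mice at both ends. Cyc1, cytochrome c1, had a slope of 0.00083 ± 0.0079, and Uqcr10, a small subunit, 0.0014 ± 0.0037.

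In complex IV, 5 of 11 slopes were negative, and the complex mean had a slope of -0.0019 ± 0.013. Cox5a had a slope of -0.011 ± 0.0071, Cox6b1 -0.013 ± 0.0098 and Cox7b 0.0097 ± 0.0087. Cox5a read 8.04 in mouse 5 and 7.93 in every other mouse, so 1 array made its slope. Cox4i1 had -0.0019 ± 0.025 and Ndufa4 -0.027 ± 0.032. Cox7a2l, a factor that joins complexes III and IV into supercomplexes, had -0.0098 ± 0.019.

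In complex V, 9 of 17 slopes were negative and the complex mean had a slope of -0.0028 ± 0.016. Atp5a1, the alpha subunit of the catalytic head, read 10.33, 10.45, 10.39, 10.26 and 10.16 in mice 5, 4, 3, 2 and 1. Its slope was -0.028 ± 0.014, with both mice of T2 over 35 ms below the other mice. Atp5d, the delta subunit, had -0.019 ± 0.014 and Atp5k -0.041 ± 0.030, and in both the value of mouse 1 stood apart. Subunit c, which forms the proton-driven ring, has 3 genes: Atp5g1 had a slope of 0.0012 ± 0.0041, Atp5g2 0.010 ± 0.0094 and Atp5g3 -0.0028 ± 0.030. Atp5g3 ranged between 8.22 and 8.61 over the mice and Atp5g1 between 6.42 and 6.46. Atpif1, the inhibitor of the ATP synthase and not a member by symbol, had a slope of -0.023 ± 0.030.

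**Figure D4:**
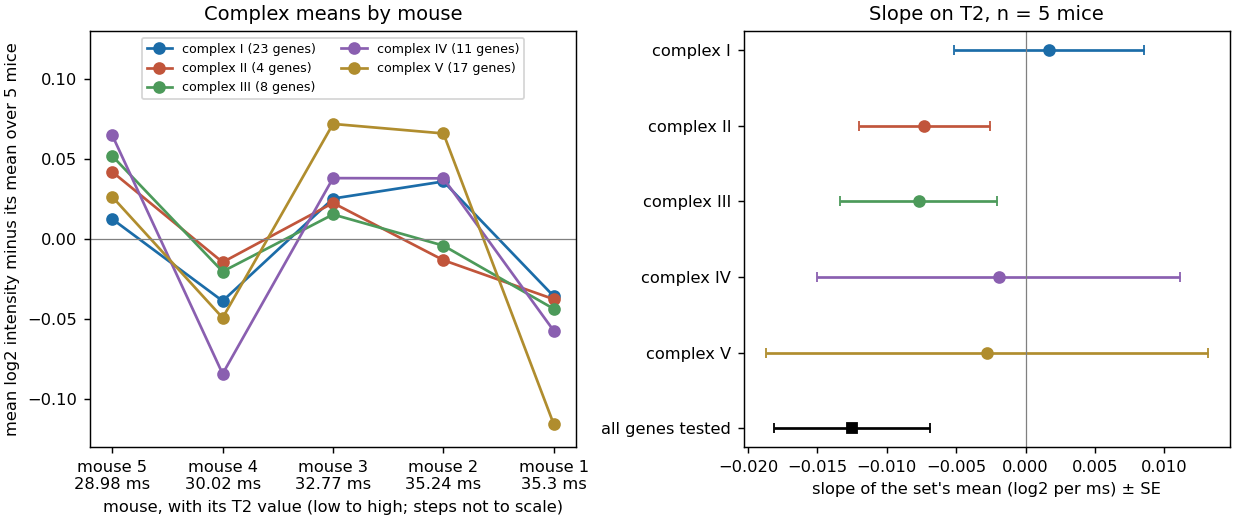
Left, mean log2 intensity over the members of each complex past the filter, minus its mean over the 5 mice, with mice ordered by T2 from low to high. Right, slope of the same means on T2 in log2 per ms with its standard error (n = 5 mice), with all genes tested at the bottom. Values are as deposited. On that scale the 5 complexes dip in mice 4 and 1, and the slopes of complexes I, IV and V are smaller than their standard errors. With centred or quantile renormalized arrays the slopes of all 5 complexes are positive.

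The deposited values of many members were the same on several arrays. Of the 63 tested, 33 (52.4%) had 1 value on 3 or more of the 5 arrays, beside 38.2% of all genes tested. Ndufb6, an accessory subunit of complex I, read 6.71 and Ndufv2 read 7.38 on all 5 arrays, as did the assembly factor Ndufaf7 under the filter at 5.89. Ndufs1, the largest subunit of complex I, had 4 equal values at 7.34 and 7.33 in mouse 3, and with Ndufb6 and Ndufv2 it had the smallest SD. By complex, the share was 13 of 23 in complex I, 3 of 4 in complex II, 6 of 8 in complex III, 5 of 11 in complex IV and 6 of 17 in complex V. Equal values were more common at low intensity: between 6 and 7 they were found in 14 of 19 members and 49.2% of other genes, between 7 and 8 in 16 of 26 members and 34.6%, between 8 and 9 in 2 of 14 members and 20.9%, and at 9 or over in 1 of 4 members and 14.3%. Such values lower the spread of a gene, and the standard errors of Ndufb6 and Ndufv2, 0.0034 each, come from the spread of other genes alone. Of the 9 members with 4 equal values, the array that differed was that of mouse 5 in 3, of mouse 2 in 2, of mouse 3 in 2 and of mouse 4 in 2.

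**Figure D5:**
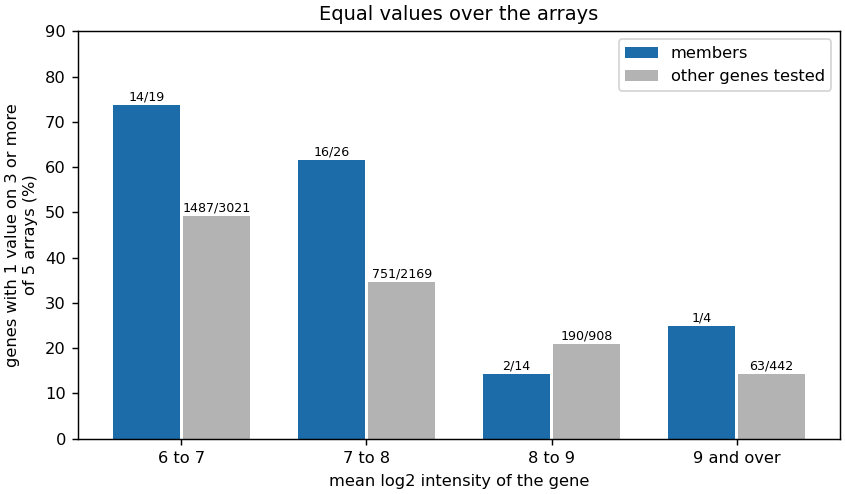
Share of genes (%) with 1 deposited value on 3 or more of the 5 arrays, by mean log2 intensity of the gene; blue bars are members and grey bars the other genes tested, with counts above the bars. Under a mean of 8 the share is higher in members, at 14 of 19 and 16 of 26.

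Several members had more than 1 probe set. Among 17 such members with 42 probe sets, the sign of the slope differed between probe sets in Atp5h, Ndufc1, Ndufs3 and Uqcrb. The 6 probe sets of Atp5l, subunit g of complex V, each had a positive slope, between 0.0096 and 0.021, and each was lowest in mouse 4. Processed copies of such genes are known in the mouse genome, and how the probe sets divide between a gene and its copies was not tested. A further 6 probe sets carry the symbols of Cox7c, Ndufb4 or Ndufs5 together with that of a related gene and were left out.

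No gene of the following lists passed at an adjusted p under 0.05. Of 18 assembly factors tested, 7 had a negative and 11 a positive slope, with a median of 0.0030; Cox20, an assembly factor of complex IV, had 0.062 ± 0.013 (limma adjusted p = 0.509) and Timmdc1, one of complex I, 0.017 ± 0.0080. Cox20 read 6.67, 6.76, 6.96, 6.97 and 7.16 in mice 5, 4, 3, 2 and 1, higher with each step up in T2. The sizes of the steps did not match: it rose from 6.97 to 7.16 between mice 2 and 1, only 0.06 ms apart. Between mice 3 and 2, at 32.77 and 35.24 ms, it rose from 6.96 to 6.97. Of 14 genes of electron carriers and ADP/ATP exchange, 9 had a negative slope, with Coq2, an enzyme of coenzyme Q synthesis, at -0.031 ± 0.017 and Vdac2, an outer membrane channel, at -0.038 ± 0.023. Of 14 citric acid cycle genes, 11 had a negative slope, with a median of -0.0073, which is near that of all genes tested. Idh3b had -0.015 ± 0.0075 and Ogdh -0.022 ± 0.014.

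Of 9 regulators of respiratory chain genes tested, 6 had a negative slope. Nrf1, which encodes nuclear respiratory factor 1, had -0.020 ± 0.0085 and Myc, a growth regulator, -0.014 ± 0.0083. Of 12 glycolytic genes, 10 had a negative slope and the median was -0.015; Pfkl, a phosphofructokinase, had -0.059 ± 0.0097 and Hk2, a hexokinase, -0.039 ± 0.012. Of 52 ribosomal protein genes, 21 had a negative slope and the median was 0.0011, with Rpl19 at 0.019 ± 0.0077 and Rps3 at -0.039 ± 0.019. The 13 subunits encoded in mitochondrial DNA had no probe set with a single symbol of the names searched. The mean of 9 macrophage markers, for scale, had a slope of -0.22 ± 0.019, and that of 9 dissociation stress genes one of -0.12 ± 0.028. With the macrophage mean as a covariate 0 of 63 members passed and 30 slopes were negative; the part of the stress genes in the slopes of the members was not tested.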

How the data were processed

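The authors deposited 1 intensity for each probe set and array on a linear scale. Affymetrix Power Tools and RMA, a method that background-corrects, quantile normalizes and median-polishes probe values, are named per the submitters' processing notes, with no version or build. The 5 arrays hold 35556 probe sets, of which 21789 have 1 gene symbol in the platform annotation, 1621 several and 12146 none here. Intensities were taken to log2, and a gene with several probe sets was represented by the one of highest mean. The number of arrays limits the precision; the labels give no batch.

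Log2 intensity of the 6603 genes with a mean of at least 6 was regressed on T2 in limma 3.58.1 (R 4.3.3; lmFit, then eBayes; residual degrees of freedom 3), two-sided, with Benjamini-Hochberg adjustment over all genes tested and a threshold of 0.05. Slopes under the filter and of complex means are least-squares slopes. Members, lists and tests were chosen with earlier results of these data known. Named genes followed a rule: all of complex II, the 3 of lowest p and the 1 of highest mean in each complex, isoform pairs, subunit c, members equal on all arrays, extremes of SD, those nearest the filter, and the 2 of lowest p in each list; others named were chosen after their values were seen. Ndufa4 and Ndufa4l2 were counted to complex IV. Tested on simulated data for 6603 genes, the fit recovered 22 of 50 changed genes at 0.1 log2 per ms, 41 of 50 at 0.2, 47 of 50 at 0.4 and 50 of 50 at 0.8, with 11 false calls. The simulated noise was normal and independent between genes, with each gene's own residual spread, also for genes with equal values. In the deposited data Vsig4, a macrophage marker with the lowest slope of all genes tested, -0.45, did not pass (limma adjusted p = 0.364). The recoveries are therefore no measure of the power for the members. Alternatives were other filters, arrays renormalized or centred, probe sets averaged, ranks of T2, other variance models, array weights, removal of genes with equal values, acinar or macrophage covariates and each mouse left out.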

Additional observations from a re-analysis of the deposited data

Results flagged for a closer look

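In 59 sets of 5 values (the means of the complexes and of all members, and the genes named by rule), 1 mouse stood apart from the other 4 in 16. The measure was the distance from that mouse to the closest other one, divided by the range of all 5, and a value above 0.71 counted. For independent normal values chance gives about 1 in 20. Equal values on several arrays, and genes named for their p, spread or equal values, change that rate. The 16 are therefore not set against it. In 14 of the 16, at least 3 arrays shared 1 value. The measure was 1 in the 7 genes with 4 equal values. Of these, Cox5a, Ndufa2 and Ndufb8 were higher in mouse 5, Cox7a2 in mouse 2, and Ndufs1 was lower in mouse 3 and Uqcr10 and Cox8b in mouse 4, with gaps of 0.11, 0.072, 0.073, 0.027, 0.0080, 0.019 and 0.091 on the log2 scale. Mouse 1 was lower in Atp5k (6.83, others 7.29 to 7.31; 0.952), Uqcrc2 (8.42, others 8.55 to 8.56; 0.899) and Atp5d (8.03, highest 8.26; 0.761). Mouse 5 was higher in Cox6b1 (8.09, others 7.94 to 7.95; 0.886), in the coenzyme Q gene Coq2 (6.79, others 6.49; 0.987) and in Nrf1 (6.38, others 6.20 to 6.24; 0.736). Mouse 4 was lower in Cox7b (7.06, others 7.17 to 7.19; 0.865) and higher in Uqcrc1 (7.97, others 7.84 to 7.87; 0.77), and mouse 3 was higher in Cox8a (7.01, others 6.83 to 6.84; 0.957).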

How the results depend on the processing

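No member passed an adjusted p of 0.05 under any alternative run. Among all genes tested, 35 of 4079 passed without genes of equal values and 3 of 3563 with a filter of 7. Renormalized arrays, centred arrays and array weights each gave 4, and no gene passed in the other runs. At an unadjusted p under 0.05 there were 1 negative and 1 positive as reported; Sdha was not among them with centred or renormalized arrays or without genes of equal values, Ndufa11 was not with averaged probe sets or without mouse 1 or mouse 2, and neither was with the macrophage covariate. There were 5 such members of 63 without mouse 5, beside 4.33% of all genes tested, and 4 of 63 without mouse 4, beside 8.04%. No paired analysis was possible because the mice form 1 group. Of the 31 members named by rule and tested, 11 had slopes on 1 side of 0 with each mouse left out, 13 turned sign and 7 reached or stayed at 0. All slopes below are log2 per ms, and their causes were not tested.

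Members with a negative slope were 14 with quantile renormalized arrays, 11 with centred arrays, 20 with array weights and 16 of 30 without genes of equal values; centring gave a median slope of 0.014. Complex means moved to -0.0021 (II, filter of 7); to 0.013 (I), 0.0035 (II) and 0.0027 (III) when renormalized, with 0.0093 (IV) and 0.0074 (V); to 0.015 (I), 0.0065 (II), 0.0060 (III), 0.012 (IV) and 0.011 (V) when centred, so that all 5 were positive under both rescalings; to -0.023 (II) and -0.014 (III) without equal genes; and to 0.010 (I), -0.021 (III), -0.031 (IV) and 0.062 (V) with a macrophage covariate, which follows T2 itself.

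Slopes of named members turned sign with renormalized arrays in Atp5g3 (0.0086), Cox4i1 (0.0093), Cox5a (0.0013), Cox7a2l (0.00054), Ndufa2 (0.00072), Ndufb8 (0.00085), Ndufs1 (0.012), Sdhb (0.0018), Uqcrc1 (0.0030) and Uqcrc2 (0.00033). With centred arrays they did so in Atp5g3 (0.011), Cox4i1 (0.012), Cox5a (0.0028), Cox6b1 (0.00070), Cox7a2l (0.0040), Ndufa2 (0.0063), Ndufb8 (0.0063), Ndufs1 (0.014), Sdhb (0.0071), Uqcrc1 (0.0041), Uqcrc2 (0.0035) and Uqcrfs1 (0.00054). Ranks of T2 turned Cox8a (-0.00099). Array weights turned Atp5g3 (0.034), Atp5mpl (0.0063), Cox4i1 (0.017), Cox7a2l (0.012), Ndufa4 (0.012) and Sdhb (0.0093). The macrophage covariate turned Atp5a1 (0.15), Atp5d (0.075), Atp5k (0.18), Atp5mpl (0.13), Cox4i1 (0.12), Cox7b (-0.046), Ndufa11 (-0.074), Uqcr10 (-0.0083), Uqcrc1 (0.056) and Uqcrc2 (0.061).

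With each mouse left out, members with a negative slope ran from 21 to 41 (21 without mouse 1 and without mouse 5, 41 without mouse 4) and their median slope from -0.0048 to 0.0037. Complex means ran from -0.0028 to 0.0077 (I), -0.011 to -0.0034 (II), -0.012 to -0.0019 (III, nearest 0 without mouse 5), -0.012 to 0.012 (IV, positive without mouse 5) and -0.013 to 0.013 (V, positive without mouse 1). Signs turned in Atp5g1 (-0.00026 to 0.0020), Atp5g3 (-0.033 to 0.029), Atp5mpl (-0.065 to 0.016), Cox4i1 (-0.016 to 0.021), Cox6b1 (-0.022 to 0.0032), Cox7a2l (-0.030 to 0.012), Cox8a (-0.0060 to 0.0074), Ndufa10 (-0.0044 to 0.017), Ndufa4 (-0.057 to 0.0037), Ndufs1 (-0.00034 to 0.00024), Sdhb (-0.020 to 0.017), Sdhc (-0.0031 to 0.025) and Uqcrc2 (-0.017 to 0.00059). The number of arrays limits all of these.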
